A study of Mus musculus with 12 samples.

Results

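The core circadian clock was followed in this experiment through 10 genes, Per1, Per2, Per3, Cry1, Cry2, Arntl, Clock, Nr1d1, Nr1d2 and Dbp, which were found by their gene names among the 54345 genes of the expression table. All 10 were among the 25044 genes that had an FPKM (fragments per kilobase of gene, scaled to library size) above 0 in at least 3 libraries and could be tested. The cells were H9c2(2-1), an embryonic heart line that the labels call wild-type myoblasts. Each of 4 groups was sequenced in 3 libraries after 6 h: untreated cells (Unt), cells given doxorubicin (DOX), an anthracycline chemotherapeutic, cells given DOX with dexrazoxane (D_DXZ), a cardioprotective agent, and cells given DOX with magnesium hexacyanoferrate nanocatalysts (D_MgHCF). No group received either protective agent without DOX, and the doses in the sequenced cells are not given in the sources used here. Each group was sampled at 1 time, so a shift of clock phase and a change of average level cannot be told apart. Bulk RNA was measured, and fewer cells of a type and less RNA per cell cannot be told apart either.

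The molecular clock is a feedback loop of transcription that runs in most cells, cardiac muscle included. CLOCK and ARNTL (also called BMAL1) form a dimer that binds E-box sequences and drives the Per, Cry, Nr1d1, Nr1d2 and Dbp genes. The PER and CRY proteins then inhibit that dimer, while the nuclear receptors REV-ERBα and REV-ERBβ, encoded by Nr1d1 and Nr1d2, repress Arntl and Clock. DBP is a PAR bZIP factor that carries the rhythm to output genes through D-box sequences.

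The stretches before the transcription start are shown for Per1, Cry1 and Nr1d1, the 3 members called higher in D_MgHCF than in Unt, for Nr1d2, which was called lower there, and for Per3, which holds 2 D-boxes. They come from RefSeq (GRCm38.p6), each running 5′ to 3′ on the strand of its gene and ending before any annotated exon, and capitals mark the motif letters named after them. Per1 has 2 windows in that table, and the one at the inner start is shown.
Per1, chr11:69098699-69098947, plus strand: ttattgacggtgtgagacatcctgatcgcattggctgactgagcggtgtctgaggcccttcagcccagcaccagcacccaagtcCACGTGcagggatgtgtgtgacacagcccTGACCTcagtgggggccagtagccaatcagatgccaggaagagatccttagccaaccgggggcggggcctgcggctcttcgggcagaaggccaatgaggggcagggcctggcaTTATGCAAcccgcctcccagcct
Cry1, chr10:85185065-85185304, minus strand: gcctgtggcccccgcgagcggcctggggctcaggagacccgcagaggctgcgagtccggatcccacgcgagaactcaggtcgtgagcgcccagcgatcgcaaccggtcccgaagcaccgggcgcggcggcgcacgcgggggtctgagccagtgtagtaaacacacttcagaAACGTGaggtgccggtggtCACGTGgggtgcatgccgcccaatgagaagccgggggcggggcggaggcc
Nr1d1, chr11:98775378-98775627, minus strand: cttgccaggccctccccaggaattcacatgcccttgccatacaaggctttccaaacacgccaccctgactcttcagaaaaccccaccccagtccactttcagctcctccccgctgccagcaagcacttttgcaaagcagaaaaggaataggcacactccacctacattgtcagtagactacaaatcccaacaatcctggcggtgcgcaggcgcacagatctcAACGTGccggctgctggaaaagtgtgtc
Nr1d2, chr14:18239128-18239356, minus strand: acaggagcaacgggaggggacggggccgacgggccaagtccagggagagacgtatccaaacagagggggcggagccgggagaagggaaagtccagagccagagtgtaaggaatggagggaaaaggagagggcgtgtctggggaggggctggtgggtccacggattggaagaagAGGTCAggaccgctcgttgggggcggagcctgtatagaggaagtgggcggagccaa
Per3, chr4:151044666-151044915, minus strand: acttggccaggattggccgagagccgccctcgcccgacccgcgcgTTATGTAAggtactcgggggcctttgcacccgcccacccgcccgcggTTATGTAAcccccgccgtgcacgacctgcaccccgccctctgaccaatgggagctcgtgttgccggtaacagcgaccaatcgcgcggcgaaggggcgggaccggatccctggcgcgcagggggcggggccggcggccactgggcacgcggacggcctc

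The letters were searched on both strands of windows of 300 bases, from 250 before to 50 after a start. The table held 13 windows for 9 of the 10 members and had no entry for Per2. The E-box CACGTG, which reads the same on both strands, stood in Per1 at position -166 and in Cry1 at position -60 from the start, against 7.15% of all 32851 windows. The variant CACGTT, read on the other strand as AACGTG, was found in Cry1 at -79, Cry2 at -166 and Nr1d1 at -28, against 4.68% of all windows. A D-box TTATGNAA occurred in Per1 at -24 and in Per3 at -205 and -158, against 3.38% of all windows. The nuclear receptor sequence AGGTCA, read on the other strand as TGACCT, occurred in Per1 at -137, Nr1d2 at -77, Clock at -119 and Arntl at 32 bases after the start, against 16.3% of all windows. Clock has 3 windows and Arntl 2, and these matches stood only in window 3 and window 2. The shares count single windows, so a member with several windows had more room for a match. No 2 matches overlapped in these windows. The matches describe the mouse reference sequence and are no measure of binding in these cells, which the study describes as rat.

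Reads on genes numbered 16626514 to 19365119 per library, so depth was similar across groups, but the scaling inside the deposited FPKM was not: the library size it implied was 1.32 to 1.38 times the summed reads in Unt, 0.647 to 0.784 times in DOX, 0.747 to 0.892 times in D_DXZ and 1.26 to 1.43 times in D_MgHCF. Relative to their geometric mean, the implied sizes were 1.39 in Unt replicate 1, 0.839 in DOX replicate 1 and 1.36 in D_MgHCF replicate 3. Median-ratio factors, the median over genes of a library's reads relative to the gene's geometric mean, were 1.40, 0.845 and 1.37 there. The deposited scaling thus tracked such factors and not the summed reads. At this similar depth the D_MgHCF libraries had 23368 to 25456 genes above 0, against 18530 to 20660 in the libraries of the other groups. The share of reads on mitochondrial genes was 1.19 to 1.42% (Unt), 2.73 to 2.89% (DOX), 2.73 to 3.27% (D_DXZ) and 1.76 to 3.16% (D_MgHCF). Replicates correlated at 0.985 to 0.992 in Unt, DOX and D_DXZ (Pearson's r of log2(FPKM + 1) across genes), whereas D_MgHCF replicate 3 stood apart, at 0.899 and 0.935 with replicates 1 and 2, which correlated at 0.975. None of 8 myoblast markers reached a mean FPKM of 1 over the 12 libraries, and Myod1, Myf5, Myf6, Myog and Pax7 were at or near 0. Des averaged 1.46 (Unt), 0.55 (DOX), 0.54 (D_DXZ) and 0.86 (D_MgHCF). Gata4 was the 1 of 7 cardiac muscle markers that reached a mean of 1. The labelled cell type was thus at most weakly seen in these markers. The cardiac list summed to FPKM values of 9.79 to 11 (Unt), 3.19 to 5.88 (DOX), 3.04 to 4.14 (D_DXZ) and 15 to 26.4 (D_MgHCF). Most of that sum was Gata4 (means of 10.3, 3.35, 2.93 and 19.2), while Tnnt2 rose from 0.133 in Unt to 0.903 in DOX. The sum of 6 fibroblast markers, 4 of which reached 1, was 72.5 to 79.8, 148 to 186, 116 to 158 and 45.8 to 72.4 in the same order. From Unt to DOX the means of Col1a1 (19.98 to 70.55), Col1a2 (27.78 to 37.83) and Col3a1 (15.57 to 49.75) rose. Those of Pdgfra (0.718 to 0.353) and Pdgfrb (12.2 to 8.35) fell, and Thy1 was near 0, so the markers of a list did not move together. None of 4 endothelial markers reached 1 (summed FPKM 0.0131 to 1.08 over all groups), and of 4 blood markers Cd68 alone did, the summed FPKM of the list being 0.888 to 1.11 (Unt), 2.75 to 3.54 (DOX), 3.81 to 4.29 (D_DXZ) and 1.98 to 4.79 (D_MgHCF). The part of these shifts in the clock results was not tested.

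Most clock genes were lower after DOX and higher again with MgHCF, while with DXZ none was called different from DOX. In DOX, 9 of the 10 members were lower than in Unt (limma on log2(FPKM + 1), adjusted p under 0.05 over all genes tested) and none was higher, where 19.9% of all genes tested were called lower and 18.6% higher. Among the 12434 genes that reached 1 FPKM in 3 or more libraries, 36.0% were called lower. The member that missed the threshold was Per1. The median log2 fold change of the members was -1.05, beside a median of 0.02 over the genes of that higher level. Nr1d2, Per2 and Arntl had the most negative fold changes, at -1.37, -1.25 and -1.14.

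**Figure D1:**
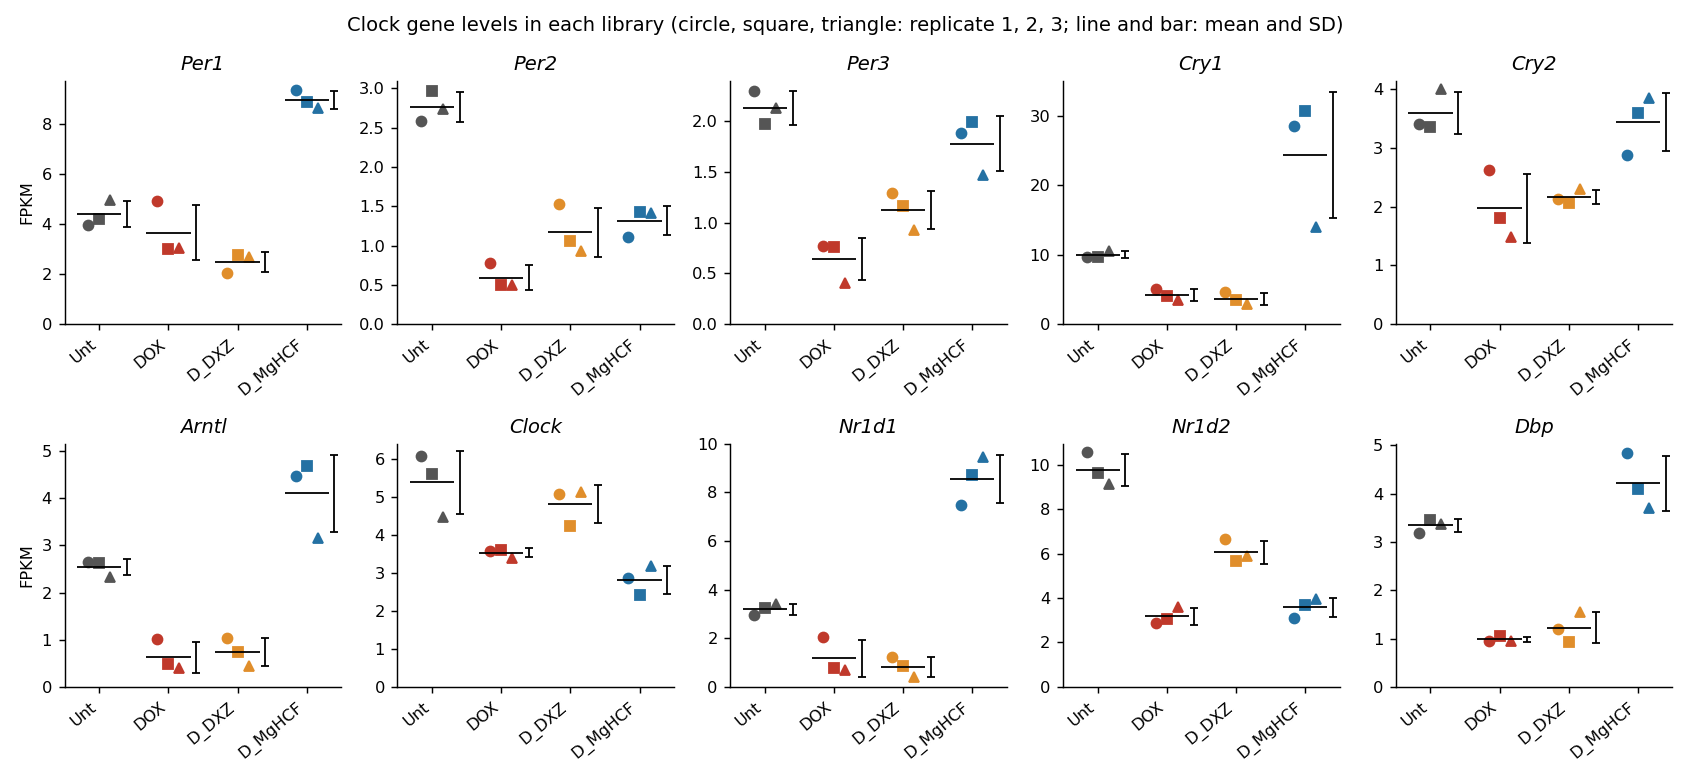
FPKM of the 10 clock genes in each of the 12 libraries, 1 panel per gene with its own axis from 0. Points are libraries, the line is the group mean and the bar the SD (n = 3). DOX points lie below all Unt points in each gene except Per1, and D_MgHCF points lie above all DOX points in Per1, Per2, Per3, Cry1, Cry2, Arntl, Nr1d1 and Dbp but not in Clock or Nr1d2.

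With MgHCF added to DOX, 8 of the 10 members were higher than in DOX and none was lower, where 31.4% of all genes tested were called higher and 20.1% lower (35.9% higher among the genes of at least 1 FPKM). Clock (log2 fold change -0.25, adjusted p = 0.125) and Nr1d2 (0.13, adjusted p = 0.356) did not pass the limma test. The members' median was 0.94, beside -0.02 over the genes of at least 1 FPKM. Cry1 and Nr1d1 had the largest fold changes, at 2.23 and 2.19. Without D_MgHCF replicate 3, which stood apart, these 8 members were still called. With only the 2 groups fitted, 7 members were called higher, where 19.6% of all genes were.

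With DXZ added to DOX, no member passed the test in either direction, and neither did any of the 25044 genes (0.0% higher, 0.0% lower, smallest adjusted p = 0.087). At an unadjusted p under 0.05, which the study used for its calls, 2388 genes passed. Per2, Per3, Clock and Nr1d2 were then higher (4.56% of all genes) and Per1 lower (4.97% of all genes). Voom on the recovered reads called no gene. Quantile normalization called 2 genes higher and 1 lower, a pseudocount of 0.1 called 4 and 2, no filter 3 and 0, the filter at 1 FPKM 2 and 0, and leaving out a library at most 3 and 6, with no member called in any of these. Compared directly, 7 members were higher in D_MgHCF than in D_DXZ, where 29.4% of all genes and 32.7% of those of at least 1 FPKM were called higher. Clock and Nr1d2 were lower there, where 19.0% of all genes and 37.6% of those of at least 1 FPKM were. Per2 did not pass (0.10, adjusted p = 0.602). Clock was 0.25 in TPM and 0.01 over the summed reads in that comparison, and Nr1d2 was 0.26 and 0.02, while Per2 was called higher (0.94, adjusted p = 0.0109, and 0.54, adjusted p = 0.023). With D_MgHCF and D_DXZ fitted alone, 5 members were called higher, where 17.3% of all genes were, and 2 lower, where 15.1% were.

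**Figure D2:**
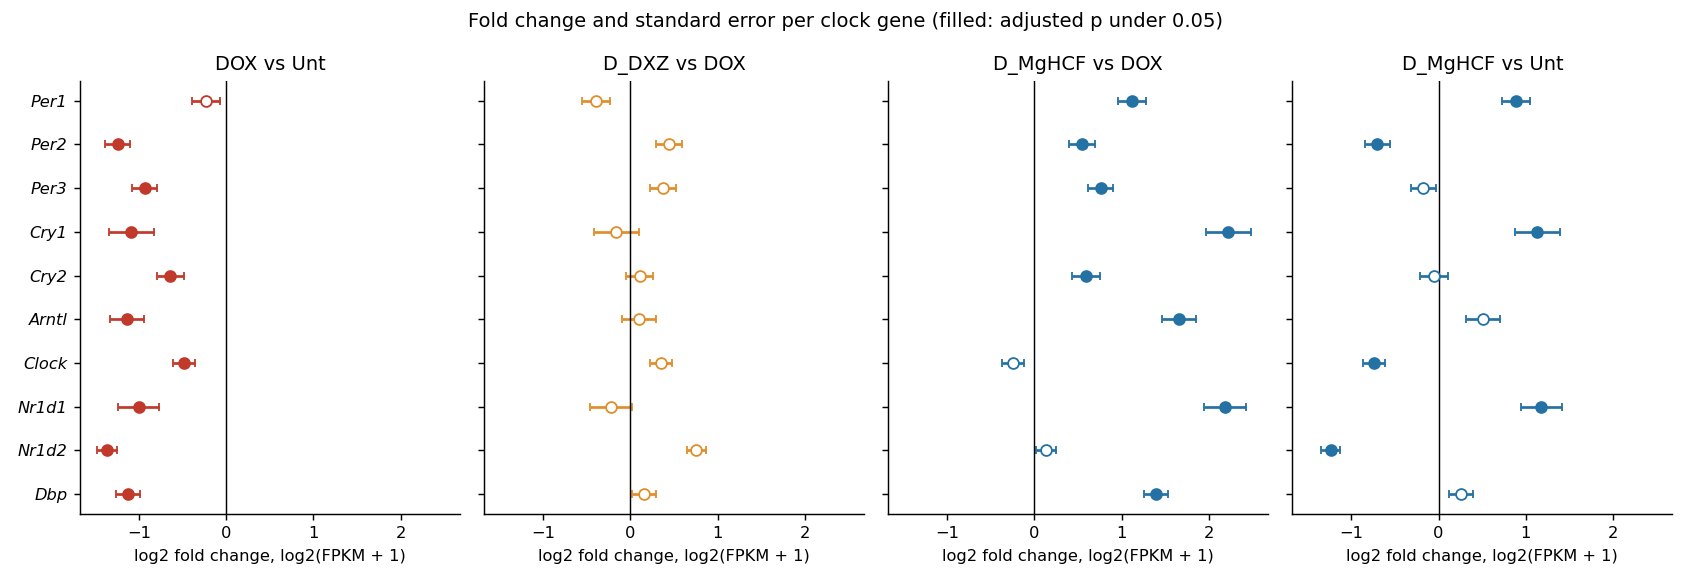
Log2 fold change on the log2(FPKM + 1) scale with its standard error for the 10 clock genes in 4 comparisons, where filled points have an adjusted p under 0.05. The DOX against Unt points lie between -1.37 and -0.23, the D_MgHCF against DOX points between -0.25 and 2.23, and no point is filled in D_DXZ against DOX.

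Against untreated cells, the members in D_MgHCF lay on both sides. Cry1, Nr1d1 and Per1 were higher than in Unt, where 24.3% of all genes were (24.6% of those of at least 1 FPKM). Clock, Nr1d2 and Per2 were lower, where 15.7% of all genes were (29.9% of those of at least 1 FPKM). In both directions the number of members called was near the share of the latter genes. Per3, Cry2, Arntl and Dbp did not pass. In D_DXZ 9 members were called lower than in Unt and none higher, where 18.0% of all genes were called lower (34.8% of those of at least 1 FPKM) and 15.9% higher, and the member that did not pass was Clock, so these 9 are not the 9 called in DOX, which lacked Per1. These comparisons share their DOX or Unt libraries and are not independent of each other.

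Of the activators, Arntl (ENSMUSG00000055116, chr7:113207465-113314126, plus strand) encodes BMAL1, a partner in the driving dimer. Its FPKM was 2.65, 2.64 and 2.34 in the Unt libraries, 1.01, 0.477 and 0.391 in DOX, 1.03, 0.730 and 0.438 in D_DXZ, and 4.47, 4.67 and 3.16 in D_MgHCF. The DOX and D_DXZ libraries overlapped, lay below every Unt library, and every D_MgHCF library lay above every Unt library. The mean was 4.07-fold lower in DOX than in Unt (log2 fold change -1.14 ± 0.195 SE, adjusted p = 0.000777), the value resting on 34 to 115 reads per DOX library. It was 6.57-fold higher in D_MgHCF than in DOX (1.66 ± 0.195, adjusted p = 6.43e-05). The excess over Unt in D_MgHCF, 1.61-fold, had an adjusted p of 0.0585 and was not called. Settings under which it passed included genes of at least 1 FPKM only (0.0313), the summed reads (0.0428), quantile normalization (0.0385), voom (0.0371) and the replicate number as a block (0.0288). Those that missed the threshold included TPM (0.195), a pseudocount of 0.1 (0.163), no filter (0.102) and the 2 groups fitted alone (0.0725). Of the fits that left out 1 library, only those without DOX replicate 1 (0.0435) or D_MgHCF replicate 3 (0.0168) passed.

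Clock (ENSMUSG00000029238, chr5:76209868-76304792, minus strand) encodes the partner of BMAL1 in the dimer, and its values took another course. Its FPKM was 6.10, 5.60 and 4.47 in Unt, 3.59, 3.62 and 3.40 in DOX, 5.08, 4.24 and 5.14 in D_DXZ, and 2.87, 2.43 and 3.18 in D_MgHCF. D_MgHCF held the lowest libraries of the 4 groups, just below those of DOX, whereas D_DXZ overlapped Unt. Clock was 1.53-fold lower in DOX than in Unt (-0.49 ± 0.127, adjusted p = 0.0105) and 1.91-fold lower in D_MgHCF than in Unt (-0.74 ± 0.127, adjusted p = 0.00142). Without Unt replicate 1 the DOX fold change was -0.41 and missed the threshold (adjusted p = 0.0528), and after quantile normalization it was -0.07 (adjusted p = 0.764). In D_DXZ against Unt it was 1.12-fold lower, which did not pass (adjusted p = 0.548), while TPM (-1.26) and the summed reads (-0.77) called it and quantile normalization gave 0.20. In D_MgHCF against DOX the sign of Clock depended on the scaling, at -0.25 in the deposited FPKM, -0.64 after quantile normalization, 0.79 in TPM and 0.48 over the summed reads, but it lay below the median of the genes of at least 1 FPKM in each.

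The period genes encode the PER proteins, which enter the nucleus with CRY and inhibit the dimer. Per1 (ENSMUSG00000020893, chr11:69095217-69109960, plus strand) had an FPKM of 3.97, 4.22 and 4.97 in Unt, 4.94, 3.004 and 3.06 in DOX, 2.05, 2.76 and 2.69 in D_DXZ, and 9.36, 8.89 and 8.63 in D_MgHCF. DOX replicate 1 lay among the Unt libraries while the other two lay below all of them, and the D_MgHCF libraries were tight and far above the rest. In DOX against Unt the fold change was -0.23 ± 0.161 (adjusted p = 0.344), and without DOX replicate 1 it was -0.41 with an adjusted p of 0.0309. Per1 was 2.45-fold higher in D_MgHCF than in DOX (1.12 ± 0.161, adjusted p = 0.000231) and 2.04-fold higher than in Unt (0.89 ± 0.161, adjusted p = 0.00189). It was 1.76-fold lower in D_DXZ than in Unt (-0.62 ± 0.161, adjusted p = 0.0115), which missed the threshold without Unt replicate 3 (adjusted p = 0.0506) and after quantile normalization (-0.24, 0.336). In DOX against Unt it was called lower in TPM (-1.51) and over the summed reads (-0.97).

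Per2 (ENSMUSG00000055866, chr1:91415982-91459324, minus strand) had an FPKM of 2.59, 2.96 and 2.74 in Unt, 0.776, 0.492 and 0.502 in DOX, 1.52, 1.05 and 0.934 in D_DXZ, and 1.11, 1.42 and 1.42 in D_MgHCF. The D_DXZ and D_MgHCF libraries overlapped each other, above all DOX and below all Unt libraries. Per2 was 4.68-fold lower in DOX than in Unt (-1.25 ± 0.146, adjusted p = 6.86e-05, 34 to 69 reads per DOX library), the largest ratio among the members. D_MgHCF stood 2.23-fold above DOX (0.54 ± 0.146, adjusted p = 0.0102) and 2.10-fold below Unt (-0.70 ± 0.146, adjusted p = 0.00401). The first of these calls was lost after quantile normalization (0.17, adjusted p = 0.462).

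Per3 (ENSMUSG00000028957, chr4:151003652-151044665, minus strand) had an FPKM of 2.30, 1.97 and 2.13 in Unt, 0.768, 0.762 and 0.405 in DOX, 1.29, 1.16 and 0.927 in D_DXZ, and 1.88, 1.99 and 1.47 in D_MgHCF. The groups ran in the order DOX, D_DXZ, D_MgHCF and Unt, and of these neighbours only D_MgHCF and Unt overlapped. Per3 was 3.30-fold lower in DOX than in Unt (-0.94 ± 0.145, adjusted p = 0.000422) and 2.76-fold higher in D_MgHCF than in DOX (0.76 ± 0.145, adjusted p = 0.00145), which left it 1.20-fold below Unt (adjusted p = 0.365). In D_DXZ it was 1.89-fold below Unt (-0.56 ± 0.145, adjusted p = 0.0118), a call lost without D_DXZ replicate 3 (adjusted p = 0.0527) and after quantile normalization (-0.28, 0.161). Its excess in D_MgHCF over D_DXZ (0.39 ± 0.145, adjusted p = 0.0497) sat at the threshold and the call was lost without any one of 10 of the 12 libraries, with an adjusted p of 0.057 to 0.154, as well as with a pseudocount of 0.1 (0.0778), with the 2 groups fitted alone (0.159) and after quantile normalization (0.06, 0.755).

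The cryptochrome genes encode the stronger inhibitors of the dimer. Cry1 (ENSMUSG00000020038, chr10:85131700-85185064, minus strand) had an FPKM of 9.72, 9.68 and 10.5 in Unt, 5.11, 4.04 and 3.44 in DOX, 4.60, 3.49 and 2.89 in D_DXZ, and 28.5, 30.6 and 14.0 in D_MgHCF. Its lowest D_MgHCF value came from replicate 3, and even that library exceeded every Unt library. Cry1 was 2.38-fold lower in DOX than in Unt (-1.09 ± 0.260, adjusted p = 0.00625), 5.81-fold higher in D_MgHCF than in DOX (2.23 ± 0.260, adjusted p = 6.11e-05) and 2.44-fold higher than in Unt (1.13 ± 0.260, adjusted p = 0.00681). After quantile normalization the DOX fold change of -0.83 missed the threshold (adjusted p = 0.0663). Without D_MgHCF replicate 3 the fold changes against DOX and Unt were 2.57 and 1.48.

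Cry2 (ENSMUSG00000068742, chr2:92403646-92434043, minus strand) had an FPKM of 3.42, 3.35 and 4.01 in Unt, 2.63, 1.81 and 1.48 in DOX, 2.13, 2.06 and 2.30 in D_DXZ, and 2.88, 3.60 and 3.85 in D_MgHCF. The D_MgHCF libraries overlapped Unt, and the D_DXZ libraries lay within the DOX range. Cry2 was 1.82-fold lower in DOX than in Unt (-0.64 ± 0.156, adjusted p = 0.00686) and 1.75-fold higher in D_MgHCF than in DOX (0.59 ± 0.156, adjusted p = 0.00923). Both calls were lost after quantile normalization, at -0.17 (adjusted p = 0.481) and 0.18 (0.413), and the latter also when the 2 groups were fitted alone (0.0726). In D_DXZ it was 1.66-fold below Unt (-0.54 ± 0.156, adjusted p = 0.0213), a call lost without Unt replicate 3 (0.0849), D_DXZ replicate 1 (0.0529) or D_DXZ replicate 2 (0.067), or after quantile normalization (-0.14, 0.582). Its excess in D_MgHCF over D_DXZ (0.48, adjusted p = 0.026) was lost without D_MgHCF replicate 2 (0.0704) or 3 (0.0532) or D_DXZ replicate 1 (0.0609) or 2 (0.0724), with the 2 groups fitted alone (0.0687) and after quantile normalization (0.16, 0.477).

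The receptor genes Nr1d1 and Nr1d2, which encode the paired repressors REV-ERBα and REV-ERBβ, moved apart in D_MgHCF. Nr1d1 (ENSMUSG00000020889, chr11:98767932-98775333, minus strand) had an FPKM of 2.96, 3.24 and 3.40 in Unt, 2.06, 0.785 and 0.674 in DOX, 1.21, 0.843 and 0.414 in D_DXZ, and 7.47, 8.72 and 9.45 in D_MgHCF. All DOX and D_DXZ libraries lay below Unt, and all D_MgHCF libraries above it. Nr1d1 was 2.73-fold lower in DOX than in Unt (-1.01 ± 0.237, adjusted p = 0.00589), on 24 to 96 reads per DOX library, and its spread there was the widest of the members (CV 65.5%). That call was lost after quantile normalization (-0.59, adjusted p = 0.0776). It was 7.30-fold higher in D_MgHCF than in DOX (2.19 ± 0.237, adjusted p = 3.89e-05), 2.67-fold higher than in Unt (1.18 ± 0.237, adjusted p = 0.00339) and 10.4-fold higher than in D_DXZ, where a library had as few as 17 reads.

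Nr1d2 (ENSMUSG00000021775, chr14:18204054-18239127, minus strand) had an FPKM of 10.6, 9.63 and 9.15 in Unt, 2.89, 3.06 and 3.61 in DOX, 6.64, 5.66 and 5.90 in D_DXZ, and 3.10, 3.71 and 3.94 in D_MgHCF. The D_MgHCF libraries overlapped DOX, whereas D_DXZ lay between these and Unt without overlap. Nr1d2 was 3.07-fold lower in DOX than in Unt (-1.37 ± 0.112, adjusted p = 1.32e-05) and 2.73-fold lower in D_MgHCF than in Unt (-1.24 ± 0.112, adjusted p = 4.62e-05). Against DOX the D_MgHCF fold change of 0.13 was 1.25 in TPM and 0.87 over the summed reads, both called. In D_DXZ it was 1.90-fold above DOX (0.76 ± 0.112), with an adjusted p of 0.133 over all genes (4.68e-05 unadjusted) in limma. It was 1.69-fold lower in D_MgHCF than in D_DXZ (-0.63 ± 0.112, adjusted p = 0.00109), and under TPM and the summed reads, where the sign turned, it still lay below the median of the genes of at least 1 FPKM.

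Dbp (ENSMUSG00000059824, chr7:45705088-45710203, plus strand), the output factor, had an FPKM of 3.19, 3.46 and 3.38 in Unt, 0.946, 1.04 and 0.953 in DOX, 1.20, 0.918 and 1.55 in D_DXZ, and 4.83, 4.09 and 3.70 in D_MgHCF. DOX and D_DXZ overlapped far below the other groups, and D_MgHCF lay just above Unt. Dbp was 3.41-fold lower in DOX than in Unt (-1.13 ± 0.138, adjusted p = 8.82e-05, 33 to 43 reads per DOX library) and 4.30-fold higher in D_MgHCF than in DOX (1.39 ± 0.138, adjusted p = 2.36e-05). The 1.26-fold excess over Unt in D_MgHCF did not pass (adjusted p = 0.161).

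Within the DOX group 1 library was often the highest. DOX replicate 1 held the top value of the 3 DOX libraries in 7 members (Per1, Per2, Per3, Cry1, Cry2, Arntl and Nr1d1), and D_DXZ replicate 1 that of its group in 6. DOX replicate 1 also had the largest implied library size of its group, at 0.784 times its reads. The share of all genes that were highest in either library was not determined, so these counts cannot be read as a trait of the clock genes. Why DOX replicate 1 was often the highest was not tested.

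Because the scaling differed between groups, the members were also read under other scalings and against the median of the genes of at least 1 FPKM. In DOX against Unt that median was 0.02 in the deposited FPKM, -1.18 in TPM, -0.68 over the summed reads and 0.02 after quantile normalization. All 10 members lay below it in the first 3, and 9 in the last, where Per1 lay above it. Members called lower numbered 10 in TPM, where 40.8% of all genes were called lower and 4.44% higher, 10 over the summed reads (33.2% lower, 8.29% higher) and 5 after quantile normalization (17.3% lower, 16.7% higher). In D_MgHCF against DOX the median was -0.02, 1.02, 0.67 and -0.04 in the same order. Members called higher numbered 10 in TPM, where 53.9% of all genes were (6.75% lower), 10 over the summed reads (49.4% higher, 9.59% lower), and 6 after quantile normalization (18.5% higher, 19.6% lower), with Clock called lower in the last. In all, 9 of the 10 stood above the median in the first 3 and 8 after quantile normalization, where Nr1d2 joined Clock below it.

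**Figure D3:**
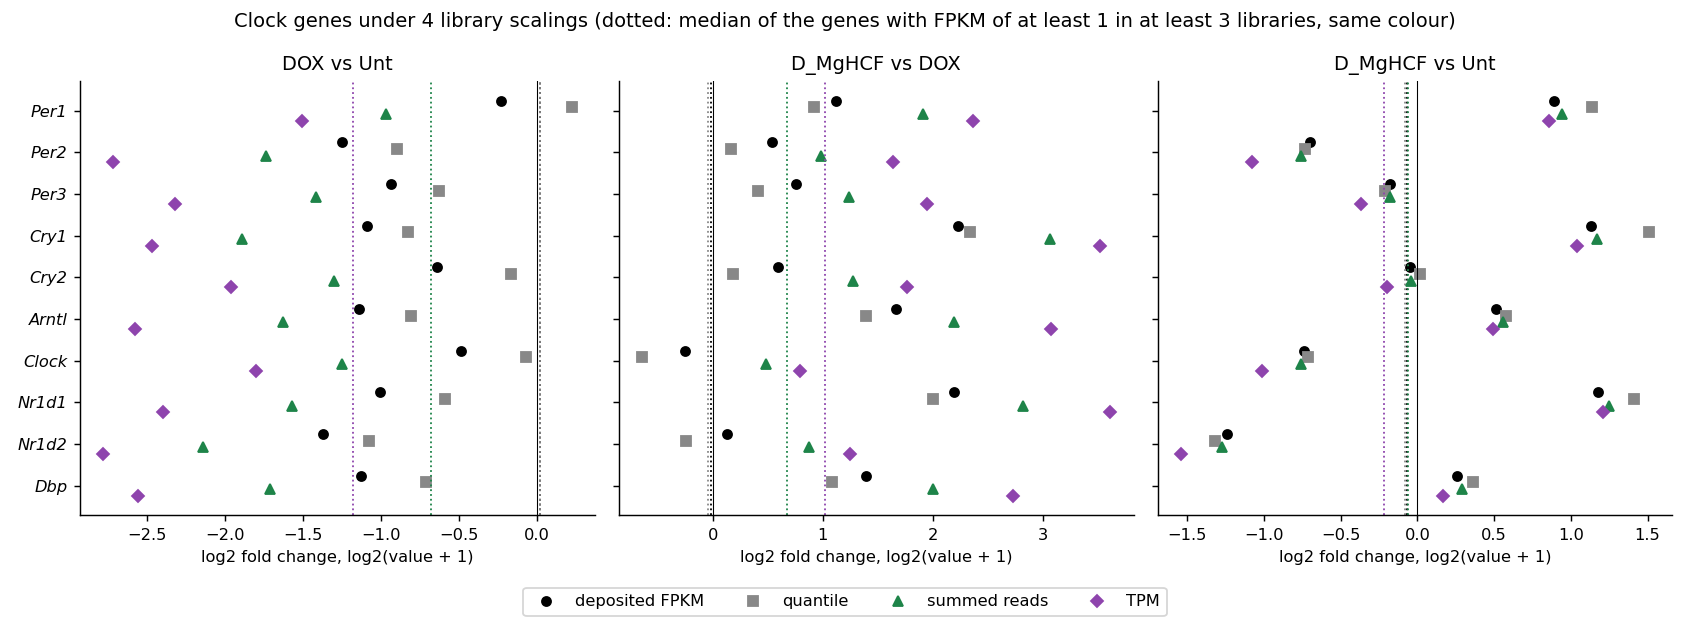
Log2 fold change of the 10 clock genes under 4 library scalings in 3 comparisons, with a dotted line of the same colour at the median of the genes of at least 1 FPKM. TPM and summed reads shift members and medians together, so that Clock in D_MgHCF against DOX moves from -0.25 to 0.79 while its line moves from -0.02 to 1.02.

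Ratios of 2 members within a library do not change with its library size, though quantile normalization can change them. The Clock to Arntl ratio of FPKM was 1.20, 1.09 and 0.94 on the log2 scale in the Unt libraries, 1.83, 2.92 and 3.12 in DOX, 2.31, 2.54 and 3.55 in D_DXZ, and -0.64, -0.94 and 0.01 in D_MgHCF. Clock exceeded Arntl in every Unt, DOX and D_DXZ library, whereas in D_MgHCF Arntl was the higher in replicates 1 and 2 and Clock (3.18 FPKM) lay close to Arntl (3.16) in replicate 3. In D_MgHCF the mean ratio was 0.695 on the linear scale against 2.11 in Unt and 6.18 in DOX. The Nr1d1 to Nr1d2 log2 ratio averaged -1.61 ± 0.208 (SD, n = 3) in Unt, -1.62 ± 1.01 in DOX, -3.01 ± 0.725 in D_DXZ and 1.26 ± 0.0201 in D_MgHCF, so Nr1d1 was above Nr1d2 in D_MgHCF alone of these groups. The Per1 to Per2 log2 ratio averaged 0.66 ± 0.180 in Unt, 2.63 ± 0.0358 in DOX, 1.11 ± 0.599 in D_DXZ and 2.78 ± 0.265 in D_MgHCF. The Cry1 to Cry2 log2 ratio averaged 1.48 ± 0.0719, 1.11 ± 0.136, 0.74 ± 0.391 and 2.75 ± 0.781 in the same order, and the Nr1d1 to Arntl log2 ratio 0.33 ± 0.194, 0.85 ± 0.162, 0.12 ± 0.174 and 1.07 ± 0.446. In total 15 differences of these ratios were tested with a two-sided exact permutation test, in which 3 against 3 libraries cannot go below p = 0.1, and 10 reached that value (adjusted p = 0.15).

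**Figure D4:**
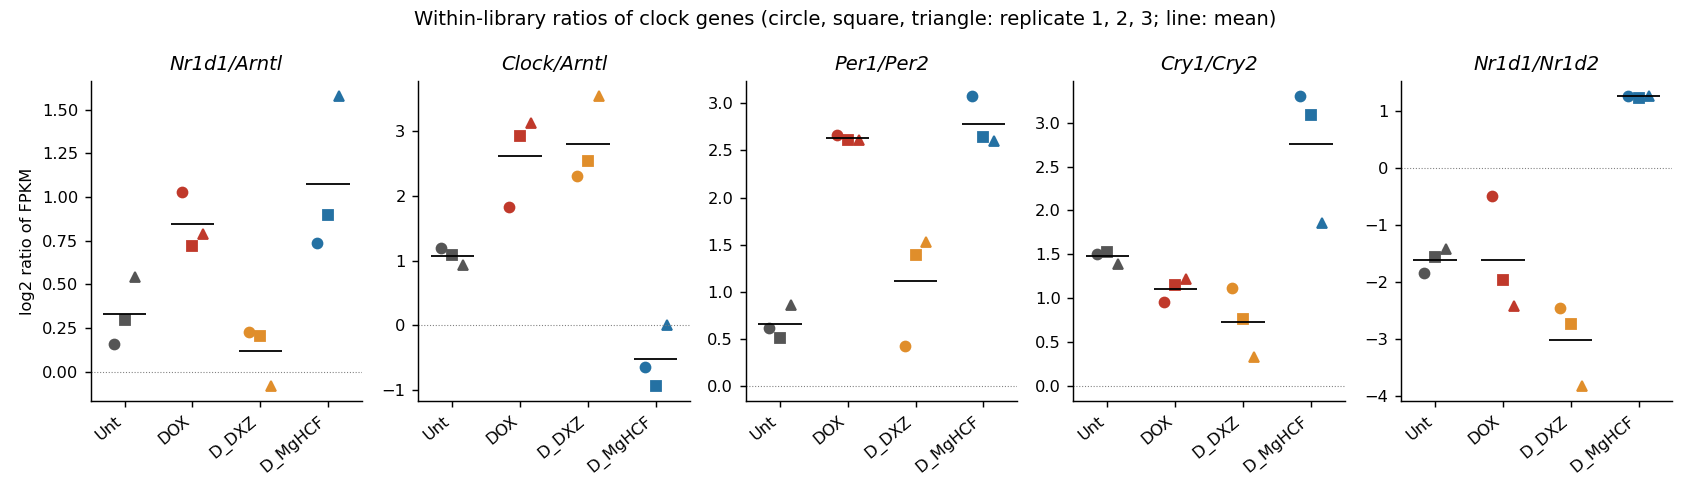
Log2 ratio of FPKM of 5 pairs of clock genes in each library, 1 panel per pair, where points are libraries, lines are group means and the dotted line marks equal FPKM. In D_MgHCF the Nr1d1/Nr1d2 points lie at 1.23 to 1.27, above all other libraries, and the Clock/Arntl points at -0.94 to 0.01, below all other libraries.

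The other 29 genes of the pathway, all of them tested, were mostly lower in DOX and mostly higher with MgHCF. In DOX against Unt 18 were lower and 2 higher, with a median log2 fold change of -0.67. There 19.9% of all genes were called lower and 18.6% higher (36.0% lower among the genes of at least 1 FPKM). In D_MgHCF against DOX 20 were higher and 2 lower, with a median of 0.79. There 31.4% of all genes were called higher and 20.1% lower (35.9% higher among the genes of at least 1 FPKM). In TPM, 40.8% of all genes were lower in DOX and 53.9% higher with MgHCF. The kinases that phosphorylate PER and other clock proteins (Csnk1d, Csnk1e, Csnk1a1, Csnk2a1 and Gsk3b) were lower in 5 of 5 in DOX, under each of the 4 scalings, and with MgHCF 4 of 5 were above DOX (5 in TPM and over the summed reads). Of 5 further repressors (Bhlhe40, Bhlhe41, Ciart, Nfil3 and Cipc) 4 were lower in DOX and all 5 higher with MgHCF (5 and 5 in TPM and over the summed reads, 3 and 4 after quantile normalization). Of 5 ubiquitin enzymes that set the stability of clock proteins 4 were lower in DOX and all 5 exceeded their DOX level in D_MgHCF (5 and 5 in TPM and over the summed reads, 3 and 4 after quantile normalization). Of 2 further activators 0 were lower in DOX and 1 was higher with MgHCF. For 2 further PAR bZIP factors these numbers were 0 and 1, and for 3 ROR receptors, which activate Arntl, 1 and 0. In TPM they were 1 and 2, 1 and 2, and 1 and 3 in the same order. The summed reads gave 1 and 2, 1 and 1, and 1 and 2, and quantile normalization 0 and 0, 0 and 1, and 0 and 0. Npas2, Rora, Rorb and Hlf were near 0 in Unt (means of 0.0085, 0.0021, 0.015 and 0.045 FPKM), which left little room for a lower call. The activator called higher was Npas2, at 0.034 to 0.39 FPKM in D_MgHCF. Of 7 outputs and partners 4 were lower and 2 higher in DOX, and 4 were higher and 2 lower with MgHCF.

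The largest falls in DOX were in Wee1, a cell cycle kinase under clock control, and Nfil3, a repressor of D-box genes. Wee1 had an FPKM of 13.5, 12.9 and 14.5 in Unt, 2.31, 0.775 and 0.430 in DOX and 7.45, 9.94 and 9.99 in D_MgHCF. Its log2 fold change was -2.85 in DOX against Unt (adjusted p = 8.44e-05) and 2.31 in D_MgHCF against DOX (adjusted p = 0.000286), and those of Nfil3 were -2.79 and 1.91. The 2 genes higher in DOX were Nono and Sfpq, which encode paired RNA-binding proteins that join PER complexes. Their fold changes were 1.43 and 1.10 in DOX against Unt and -2.37 and -1.61 in D_MgHCF against DOX, but in DOX against Unt Nono was at -0.21 after quantile normalization and Sfpq at -0.25 in TPM. In D_DXZ against DOX none of the 29 passed, and 5 did at an unadjusted p under 0.05.

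**Figure D5:**
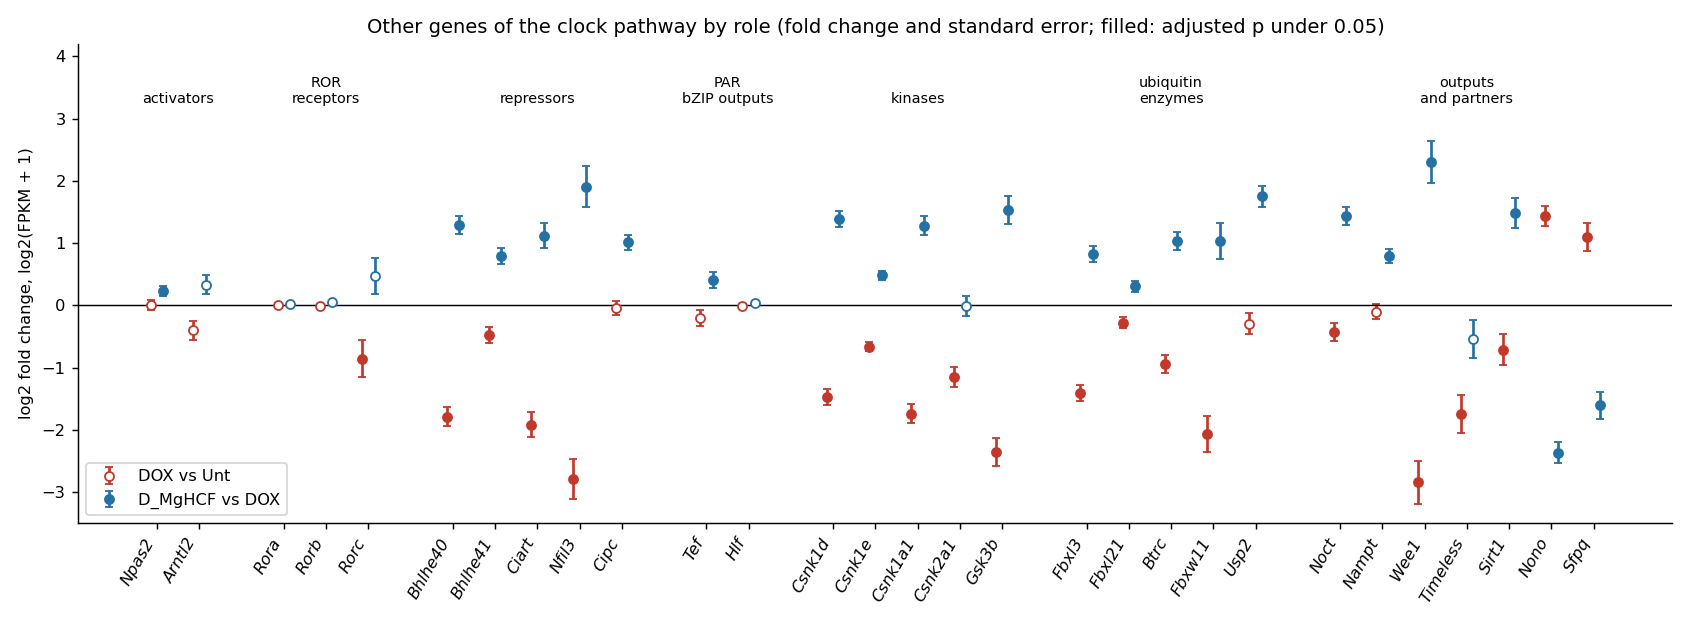
Log2 fold change with its standard error of the 29 other pathway genes, grouped by role, in DOX against Unt and in D_MgHCF against DOX, where filled points have an adjusted p under 0.05. All 5 kinases lie below 0 in DOX, at -2.36 to -0.67, and Nono and Sfpq alone are filled above 0 there.

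Some reads of the members cannot be assigned with certainty, since the strand used in counting is not given in the sources used here. Dbp shares 539 exonic bases (18.0% of its exons) with Sphk2 on the opposite strand, and Sphk2 had fold changes of the same signs (-1.81 in DOX against Unt, 2.13 in D_MgHCF against DOX). Nr1d1 shares 263 exonic bases (8.55%) with Thra on the opposite strand, and Thra had the opposite signs (1.10 and -0.80), though in TPM its values were -0.20 and 0.36. Cry2 shares 295 bases (4.67%) with D930015M05Rik, which had at most 11 reads in a library, and Arntl 33 bases (0.439%) with Gm45355, which had at most 3. Per3 lies within the span of Camta1 (0.36 in DOX against Unt, adjusted p = 0.0472), and Clock spans Ube2n-ps1 (1.57, adjusted p = 0.000101) and Gm43658 (0.05, adjusted p = 0.517), with no exonic base shared. Nr1d2 has a stretch of 1385 bases at 96.1% identity to AC170187.1, whose reads were not analysed here.

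The gene nearest in pattern to a member was sought among 8434 genes with a mean FPKM of at least 5 in a group, by the root mean square difference of gene-centred log2(FPKM + 1) over the 12 libraries. It was Ehbp1 for Arntl (0.1), Tmf1 for Clock (0.105), Epb41 for Per1 (0.153), Tstd2 for Per2 (0.112), Lrr1 for Per3 (0.118), Alas1 for Cry1 (0.133), Cdc42ep4 for Nr1d1 (0.112), Phldb2 for Nr1d2 (0.154) and Eme1 for Dbp (0.128). Among the members themselves Per3 and Cry2 were closest (0.198), followed by Per2 and Per3 (0.231), and Cry1 and Nr1d2 were farthest apart (1.18). By this measure these 9 members were nearer to the named gene than to any other member, though the named genes were drawn from a far larger set, outside the members and the other pathway genes.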

How the data were processed

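RNA was measured by poly(A)-selected, 150 bp paired-end sequencing of 12 libraries, 3 in each of 4 groups, which were taken from the labels. The submitters' processing notes name HISAT2 2.0.5 and the mouse build GRCm38, to which H9c2 cells, described by the study as rat, were mapped. The counting program and its use of strand are not given in the sources used here. The authors deposited FPKM per gene, with gene lengths. FPKM multiplied by length was a whole multiple of 1 step in each library (100% of values within 0.01 read), which gave the reads and the library size that the authors used.

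A single limma 3.58.1 fit (R 4.3.3, trended variance) on log2(FPKM + 1) covered the 12 libraries and the 25044 genes above 0 in at least 3 of them. Genes with a Benjamini-Hochberg adjusted p under 0.05 over all genes tested were called in each of 6 comparisons. Fold changes are on this scale, which understates the change of low genes, and fold values in the text are ratios of mean FPKM. The fit was tested on simulated data. Ratios of members were compared by exact permutation (SciPy 1.17.1). Overlaps of exons were read from GENCODE M21 and similar transcripts were sought with BLAST 2.17.0. Of the other pathway genes, those near 0 in Unt were named. So were those with the 2 largest rises and falls past the test in DOX against Unt and in D_MgHCF against DOX. Also named were all members, genes overlapping a member, and the gene nearest to each member in pattern. One of these genes is not reported here. The members and lists were chosen with earlier results of these data known. Nothing states that replicates came from separate cultures, so p-values measure only the spread between these samples. Depth was 16626514 to 19365119 reads on genes per library, and a member had 17 to 2606 reads in a library, so the lowest values are the least precise. Alternatives were the pseudocount, the filter, other scalings, voom on the recovered reads, an unadjusted p, a 2-fold minimum, the replicate number as a block and leaving out each library.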

Additional observations from a re-analysis of the deposited data

How the results depend on the processing

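Members rest on as few as 17 reads in a library, the scaling of the deposited FPKM differs between the groups, and the effect of mapping cells described as rat to mouse genes was not tested. Over the alternatives other than leaving out a library, 122 recomputed counts of members called stayed within 1.5 times of those reported and 10 did not. The members called lower in DOX against Unt numbered 5 after quantile normalization. At an unadjusted p, D_DXZ against DOX gave 4 higher and 1 lower. A 2-fold minimum, which is stricter by construction, left 5 higher in D_MgHCF against DOX, 3 lower in D_DXZ against Unt, 1 lower in D_MgHCF against Unt and 0 lower in D_MgHCF against D_DXZ. Quantile normalization added 1 lower in D_MgHCF against DOX, and TPM and the summed reads each gave 0 lower in D_MgHCF against D_DXZ. Clock turned positive in D_MgHCF against DOX in TPM (0.79) and over the summed reads (0.48), and in D_MgHCF against D_DXZ (0.25 and 0.01), as did Nr1d2 in the latter (0.26 and 0.02). Outside the members, Nono turned to -0.21 in DOX and to -0.21 in D_DXZ against Unt after quantile normalization, and Sfpq to -0.25 and -0.15 in TPM. Thra turned to -0.20 and -0.27 in the same comparisons in TPM, to 0.36 (TPM) and 0.12 (summed reads) in D_MgHCF against DOX, and to 0.43 and 0.17 in D_MgHCF against D_DXZ. The cause of these changes was not tested.

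Leaving out each library in turn kept all 144 counts of members within 1.5 times. This total, like that of the other alternatives, includes counts that were 0 in both fits, as for members higher in DOX against Unt. It also includes fits that left out a library outside the comparison. Among single values 697 kept their side of the threshold, 20 lost and 3 gained a call, none of the called values changing direction. Signs changed only in values not called. In D_DXZ against DOX they changed in Nr1d1 (0.05 without DOX replicate 1), Cry2 (-0.01 without DOX replicate 3) and Arntl (-0.0 without DOX replicate 3, -0.02 without D_DXZ replicate 1). In D_MgHCF against Unt the sign changed in Cry2 (0.01 without Unt replicate 3, 0.04 without D_MgHCF replicate 1). Of the 15 differences of ratios, 7 moved by more than the spread when 1 was added to each FPKM. Deviations from the group mean in libraries of the same replicate number correlated at 0.3904, 0.0494 and 0.3047 in D_DXZ against DOX, the highest. In the other comparisons these values were at most 0.0901, and they went down to -0.2405 in D_MgHCF against DOX and -0.3905 in D_MgHCF against D_DXZ. The numbers were not taken to pair the samples, and a shared origin of the same numbers in DOX and D_DXZ was not tested. With the number as a replicate block, the members called were 0 higher and 9 lower in DOX against Unt, 8 higher in D_MgHCF against DOX, and 4 higher, Arntl added, in D_MgHCF against Unt, with no other count changed. Of 6 libraries, 2 correlated best with their own number in DOX against Unt, 5 in D_DXZ against DOX, 0 in D_MgHCF against DOX, 4 in D_DXZ against Unt, 4 in D_MgHCF against Unt and 1 in D_MgHCF against D_DXZ.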
